A study of Mus musculus with 36 samples.

Results

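The 37 mouse genes described here are targets of the microRNA miR-29 known from the literature outside the DNA methylation machinery. They were taken by name from a fixed list, and all 37 had a row among the 16812 genes of the count table. Their products build extracellular matrix, act as receptors and growth factors, relay kinase and GTPase signals, drive the cell cycle or bind chromatin. Of the 37 genes, 30 held enough counts to be tested and 7 did not: Col1a1, Col1a2, Col4a2, Eln, Fbn1, Lox and Pdgfrb.

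RNA sequencing profiled peripheral blood in 36 libraries from Townes mice, a sickle cell model in which human globin genes replace those of the mouse. The libraries formed 12 groups of 3, given by arm (scrambled control or MIR29B), dose (2 or 3 mg/kg) and week (0, 2 or 4). All groups shared the strain, the mini-osmotic pump and the depletion of globin mRNA. The labels give no age, do not establish whether week 0 blood preceded dosing, and do not say whether different weeks or replicates came from separate animals, so p-values measure the spread between these samples.

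MicroRNAs guide Argonaute proteins to messenger RNAs, mostly through pairing of the seed near the 5′ end of the microRNA with a site in the 3′ untranslated region. The bound messenger RNA is then translated less or degraded faster, and the loss of messenger RNA is usually modest. The miR-29 family is best known for holding down collagens and other matrix genes in fibroblasts, and in lymphocytes for restraining the transcription factors T-bet and eomesodermin.

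The mature sequences of the mouse family are shown because all members share 1 seed, so any of them could pair with the sites below. RefSeq gives them on GRCm38.p6. The seed, bases 2 to 8, is in capitals, and the sequence of the MIR29B compound itself is not given in the sources used here.
mmu-miR-29a-3p (chr6:31062673-31062694, minus strand): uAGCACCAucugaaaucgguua
mmu-miR-29b-3p (chr6:31063025-31063047, minus strand, and a second copy at chr1:195037091-195037113, plus strand): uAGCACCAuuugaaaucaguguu
mmu-miR-29c-3p (chr1:195037600-195037621, plus strand): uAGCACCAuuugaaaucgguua

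The seed pairs with 3 kinds of site, searched on the transcript strand of the annotated 3′ UTR (GENCODE on GRCm38): the 8-mer TGGTGCTA, the 7-mer TGGTGCT (7mer-m8) and the 7-mer GGTGCTA (7mer-A1). The 7-mers lie within the 8-mer, and each gene was placed by its best match. Of the 37 genes, 14 had an 8-mer (37.8%), 16 had 7mer-m8 as their best match, 2 had 7mer-A1, and 5 had no match: Akt2, Grn, Igf1r, Itga6 and Loxl2. An 8-mer was present in 2.85% of the 14944 genes with an annotated 3′ UTR, and any of the 3 sites in 16.2% of those genes against 86.5% of the 37. The 3′ UTRs of the 37 genes were also longer, with a median of 1407 bases against 905.

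The sites below are those of the genes the results turn on, with the matching letters in capitals. Vegfa is the only one of the 37 genes that was both called in a comparison and matched, Tpm1 and Cdc42 had the highest levels, Ywhae and Nasp had small unadjusted p-values at week 2, Ccnd2 and Eomes fell just short of the threshold between weeks, and Col3a1 is a collagen shown for comparison.
Vegfa, 8-mer (chr17:46017169-46017190, minus strand): tatcatttatttatTGGTGCTA
Tpm1, 8-mer (chr9:67022983-67023004, minus strand): aatcgggtgcggatTGGTGCTA
Nasp, 8-mer (chr4:116601443-116601464, minus strand): ccttcatcttctacTGGTGCTA
Col3a1, 8-mer (chr1:45348968-45348989, plus strand): tcaaaatgtctcaaTGGTGCTA
Cdc42, 7mer-m8 (chr4:137320519-137320540, minus strand): aacgtgtccccaccTGGTGCTc
Ywhae, 7mer-m8 (chr11:75765247-75765268, plus strand): gttgctgaaaagcaTGGTGCTg
Eomes, 7mer-m8 (chr9:118485796-118485817, plus strand): aaataatgtaaattTGGTGCTt
Ccnd2, 7mer-m8 (chr6:127129401-127129422, minus strand): ctacccctaactttTGGTGCTg
A match is a description of letters, and no match says only that these letters are not in the annotated 3′ UTR.

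Library totals ranged from 10.7 to 45.65 M counts. Ribosomal RNA and rows without a gene symbol took over 5% of the counts in 3 libraries: 15.14% and 9.2% in replicates 2 and 3 of MIR29B at week 2 and 2 mg/kg, and 5.25% in replicate 1 of the scrambled control at week 0 and 2 mg/kg. The labelled cell type is erythrocytes. The 12 erythroid markers summed to 89400 to 212000 CPM (counts relative to library size, scaled by the TMM method), and markers of white cells and platelets were also counted: 15 neutrophil markers summed to 183 to 3110 CPM and 10 platelet markers to 195 to 1400 CPM. The value of 1400 CPM stood apart. It came from scrambled replicate 1 of week 2 at 3 mg/kg, and all other libraries held at most 713 CPM. In whole blood RNA, fewer cells of a type and less RNA per cell cannot be told apart.

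The levels of the 37 genes spanned more than 4 orders of magnitude when divided by transcript length. Tpm1, which encodes a tropomyosin of the red cell membrane skeleton and of other cells, was highest at 118 CPM per kb. The GTPase gene Cdc42 followed with 42.4 CPM per kb and the kinase gene Akt2 with 17.6 CPM per kb. Ppm1d, Ywhae and Hbp1 lay at 7.43, 7.34 and 7.11 CPM per kb, closer to each other than the spread among libraries. Matrix genes stood at the other end: Fbn1 had 0.00279 CPM per kb, Lox 0.00375 and Col1a1 0.0137. For Tpm1 the deposited isoforms differed widely, the lowest of its 10 rows holding 13% of the counts of the highest, and the level given is that of the highest row.

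**Figure D1:**
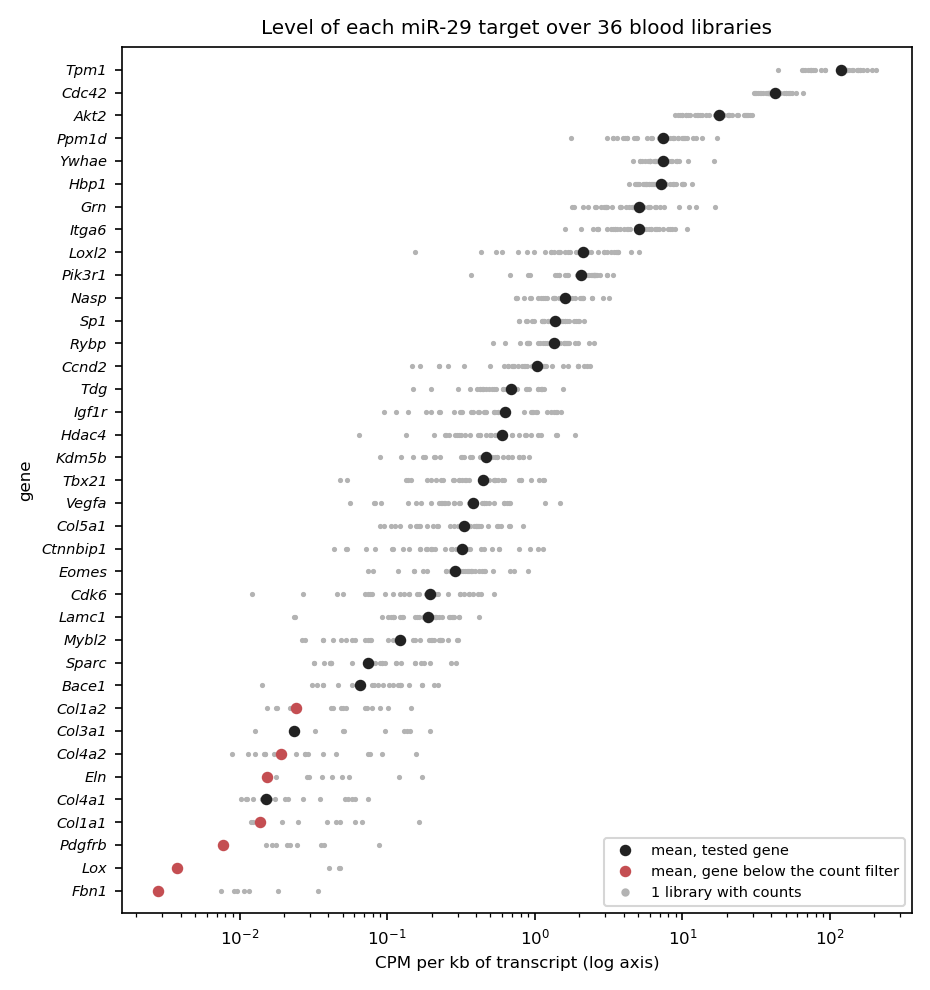
Level of each of the 37 genes in CPM per kb of transcript (log axis), genes from lowest to highest mean; large points are means over 36 libraries, small points are single libraries, and libraries with no counts are not drawn. Tpm1 (118), Cdc42 (42.4) and Akt2 (17.6 CPM per kb) lead, and the 7 genes below the count filter lie among the lowest 9.

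MIR29B against the scrambled control addressed whether these targets fell with treatment. In each of the 6 comparisons by week and dose, and in the 3 averaged over the doses, 0 of the 30 tested genes were called at an adjusted p under 0.05 by edgeR's quasi-likelihood test. The background was the same: 0.0% of the 11953 genes tested were called in each of these comparisons. By DESeq2, 0 of the 30 genes were called as well, while over all genes it called 32 and 5 at week 2 at 2 and 3 mg/kg and 76 with the doses averaged, and 14 at week 0 with the doses averaged.

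At an unadjusted p under 0.05, 5 of the 30 genes passed at week 2 and 2 mg/kg, against 8.22% of all genes, and 2 passed at 3 mg/kg, against 7.09%. At week 4, 0 passed at either dose, against 2.25% and 3.2% of all genes. At week 0, 1 and 2 passed, against 4.63% and 3.41%. With the doses averaged, 4 passed at week 0, 4 at week 2 and 0 at week 4, beside 7.13%, 9.83% and 2.64% of all genes.

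The centre of the 30 genes was compared with that of all genes. Their median log2 fold change with the doses averaged was -0.20 at week 0, -0.08 at week 2 and 0.03 at week 4, where all tested genes had -0.05, -0.09 and 0.03. By dose, the medians at week 0 were -0.11 and -0.27 at 2 and 3 mg/kg, beside -0.10 and 0.00 for all genes, and 66.7% of the 30 were negative at 3 mg/kg, beside 50.1% of all genes. The medians at week 2 were -0.22 and -0.16 at 2 and 3 mg/kg, beside -0.06 and -0.14 for all genes. At week 4 they were 0.16 and -0.05, beside 0.05 and 0.00. Placing genes with an empty group at their bound left these medians at the same values. At most 2 of the 30 genes were placed so in a comparison, so the medians could hardly move. Of the 30 genes, 0 had the same sign in all 6 comparisons. The median standard error of a gene's log2 difference by dose was 0.63, a 95% interval of about 2.34-fold to each side. With the doses averaged it was 0.44, about 1.81-fold. For a gene with such an error, a modest loss of messenger RNA was not detectable at this number of libraries. The best measured gene had a standard error of 0.28 by dose and 0.19 with the doses averaged. These are errors of single genes and not of the median over the 30.

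**Figure D2:**
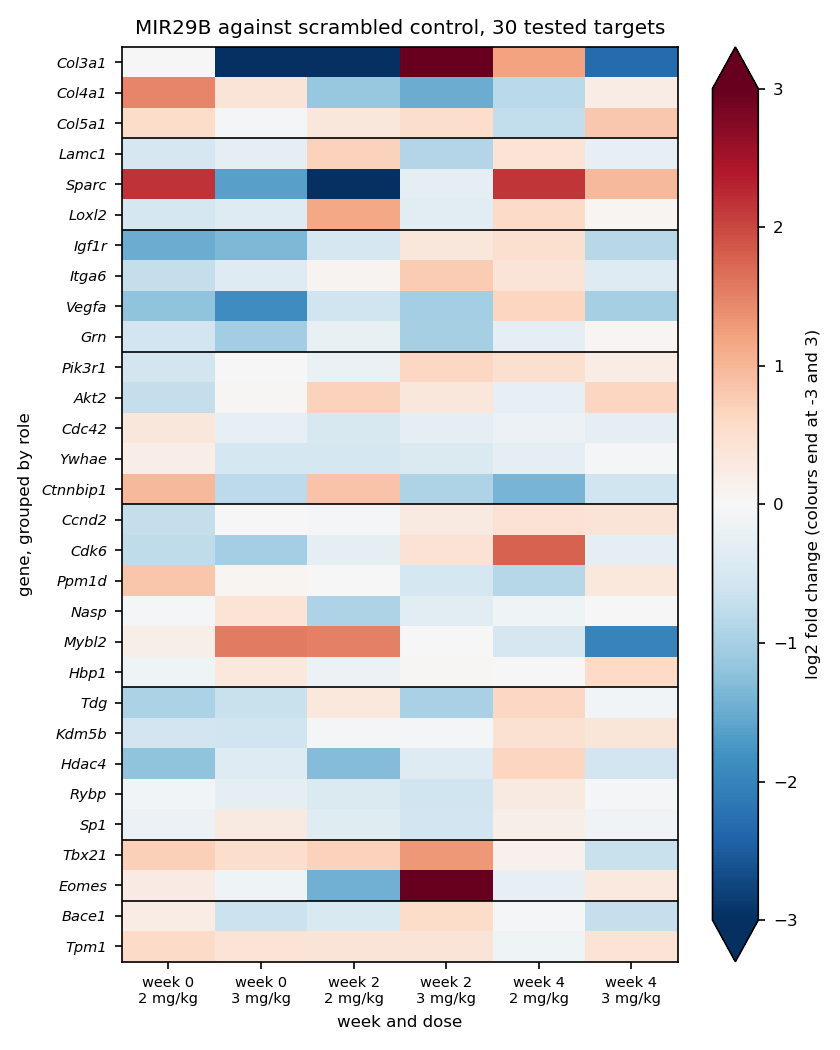
Log2 fold change of MIR29B against the scrambled control for the 30 tested genes (vertical axis, grouped by role and separated by lines) at each week and dose (horizontal axis); red is higher and blue lower with MIR29B, and colours end at -3 and 3. No gene keeps 1 colour across all 6 columns, and the darkest cells belong to Col3a1, Sparc and Eomes, which held few counts.

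Collagens give miR-29 its best known role, and blood held little of their transcripts. Col1a1, the main chain of type I collagen, had 62 counts in 10 of the 36 libraries, and Col1a2, its partner chain, had 102 counts in 15. Col3a1, of type III collagen, had 110 counts in 9 libraries and was tested from these few. At week 2 and 2 mg/kg it held 28 counts, all in scrambled replicate 1, and 0 in the 3 MIR29B libraries. At a floor of 3 counts over the 3 MIR29B libraries, that group was at least 9.8-fold lower. At a floor of 6 counts, since every count in the table was even, it was at least 4.9-fold lower. At week 2 and 3 mg/kg Col3a1 held 4 counts with MIR29B and 0 with the control. The direction thus differed between the doses, and each side rested on 1 library. Col4a2, of basement membranes, had 92 counts in 17 libraries and was not tested.

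Col5a1, a minor fibrillar collagen, was the only collagen with counts in all 36 libraries. Its level was 0.755 to 7.01 CPM, with a median of 2.71 CPM. Its log2 fold changes between the arms lay between -0.74 and 0.81 over the 6 comparisons. Col4a1, the partner chain of Col4a2, had 82 counts in 19 libraries, and its differences lay between -1.5 and 1.46.

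Other matrix genes ranged from Loxl2 and Lamc1, with counts in all 36 libraries, to genes as sparse as the collagens. Loxl2, an oxidase that crosslinks collagen and also acts in the nucleus, stood at 0.467 to 15.4 CPM, and both ends of that range were MIR29B libraries at week 2 and 2 mg/kg. Lamc1, a laminin chain, stood at 0.177 to 3.21 CPM, and Sparc, a matricellular protein of bone and platelets, at 0 to 0.672 CPM. Eln (elastin, 48 counts in 9 libraries), Fbn1 (fibrillin, 20 in 7) and Lox (a lysyl oxidase, 16 in 3) were not tested. Of the 10 endothelial and stromal markers, 4 passed the filter, and Lum, Pdgfra and Postn were at 0 in both week 0 and week 2 MIR29B groups.

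Kinase and GTPase signalling genes were well covered, except for Ctnnbip1 with 590 counts in 35 libraries. Cdc42 encodes a GTPase that organises actin. At week 2 and 2 mg/kg its MIR29B libraries read 74.5, 80.2 and 79.4 CPM and its control libraries 113, 112 and 103 CPM. Every MIR29B library lay below every control library there. The 3 mg/kg libraries read 81.1, 68.8 and 96 CPM against 110, 106 and 80.8 CPM, where the groups overlapped. With the doses averaged, the log2 fold change was -0.38 ± 0.19 (SE), with an unadjusted p of 0.0612 and an edgeR adjusted p of 0.537.

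Ywhae, which encodes a 14-3-3 adaptor that binds phosphorylated proteins, had the smallest unadjusted p of the averaged week 2 comparison. At 2 mg/kg its level was 10.8, 11.8 and 15 CPM with MIR29B and 19, 12.6 and 22.8 CPM in the control, where the groups overlapped. At 3 mg/kg it was 14.4, 12.7 and 10.8 CPM against 17, 17.6 and 16.8 CPM, with every MIR29B library lower. The averaged log2 fold change was -0.49 ± 0.21 (SE), with an edgeR adjusted p of 0.441 (unadjusted 0.0294). At week 4 it was -0.19.

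Akt2, a kinase of insulin signalling, had the smallest unadjusted p of the week 0 comparison at 2 mg/kg (0.0354) and of the week 4 comparison at 3 mg/kg (0.0607), in opposite directions. In the first it read 51.4, 45 and 40.3 CPM in the MIR29B arm against 81.4, 49.4 and 94.5 CPM, a log2 fold change of -0.72 ± 0.33 (SE) with an edgeR adjusted p of 0.876. In the second it read 135, 65.9 and 118 CPM against 76.2, 68.9 and 59.9 CPM, a log2 fold change of 0.64 ± 0.33 with an edgeR adjusted p of 1. The arms overlapped in both. Pik3r1, a regulatory subunit of PI3 kinase, and Ctnnbip1, an inhibitor of beta-catenin, had differences from -0.56 to 0.62 and from -1.4 to 0.97 over the 6 comparisons.

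Counts of genes whose groups did not overlap stayed close to the background. At week 2 and 2 mg/kg, 0 genes lay above and 2 below without overlap, Cdc42 and Eomes, where 10.4% of all tested genes did not overlap in either direction. At 3 mg/kg, Itga6 lay above and Ywhae, Lamc1 and Ctnnbip1 below, beside 8.73% of all genes. At week 4, Cdk6 lay above and Ppm1d below at 2 mg/kg (13.7% of all genes), and Ccnd2 above and Mybl2 below at 3 mg/kg (9.09%). At week 0, 2 genes lay below at 2 mg/kg, Pik3r1 and Kdm5b (9.81%), and 5 at 3 mg/kg, Cdc42, Cdk6, Sparc, Vegfa and Igf1r (10.5%). With 6 libraries an arm, 0 of the 30 genes separated at any week, beside 0.268%, 0.376% and 0.151% of all genes at weeks 0, 2 and 4.

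Cell cycle genes showed no shared direction. Nasp encodes a histone chaperone. At week 2 and 2 mg/kg its MIR29B libraries read 3.22, 1.97 and 2.34 CPM and its control libraries 6.77, 4.4 and 3.11 CPM, and the groups overlapped. The log2 fold change was -0.93 ± 0.41 (SE), with an edgeR adjusted p of 0.58 (unadjusted 0.031). At 3 mg/kg the difference was -0.31. Cdk6, a kinase of the G1 phase, was higher in every MIR29B library at week 4 and 2 mg/kg, at 6.06, 4.98 and 2.96 CPM against 1.9, 0.909 and 1.26 CPM, with a log2 fold change of 1.78 ± 0.88 and an edgeR adjusted p of 1. At 3 mg/kg it was -0.30. Hbp1, a repressor of cell cycle genes with an 8-mer and a 7mer-m8 site, had the narrowest span of the 6 cell cycle genes, with differences between -0.17 and 0.59. The other 3 were Ccnd2, the cyclin D2 gene (-0.72 to 0.43), Ppm1d, a phosphatase that ends the p53 response (-0.85 to 0.84), and Mybl2, a transcription factor of dividing cells (-2.01 to 1.57). Mybl2 had the smallest unadjusted p of the averaged week 4 comparison, 0.124, with an edgeR adjusted p of 1. Its MIR29B libraries at 3 mg/kg then read 0.211, 0.133 and 0.258 CPM and the control libraries 0.944, 0.722 and 0.834 CPM, without overlap. At 2 mg/kg they read 0.544, 0.47 and 0.269 CPM against 0.761, 0.606 and 0.457 CPM, with overlap.

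Chromatin and transcription genes were all negative at week 2 with the doses averaged, 5 of 5, with a median of -0.47, and 0 passed the test. The median of all genes was -0.09 there. At week 4 all 5 were positive with the doses averaged, with a median of 0.12. By dose, 0 of the 5 were negative then at 2 mg/kg (median 0.45) and 4 at 3 mg/kg (median -0.08). At week 0, with the doses averaged, 4 of 5 were negative, with a median of -0.59. Hdac4 encodes a histone deacetylase. At week 2 and 2 mg/kg its MIR29B libraries read 4.32, 4.93 and 1.09 CPM and its control libraries 8.54, 2.13 and 15.1 CPM, with overlap. That difference was -1.29 ± 0.61 (SE), with an edgeR adjusted p of 0.6. Tdg, which excises products of active demethylation, and Rybp, of Polycomb repression, averaged -0.33 and -0.51 at week 2. Sp1, a general transcription factor with an 8-mer, averaged -0.47 ± 0.24 with an edgeR adjusted p of 0.531 (unadjusted 0.0583). Kdm5b, a histone demethylase, averaged -0.05.

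The lymphocyte transcription factors were near the limit of detection. Eomes, which encodes eomesodermin of NK and memory T cells, held 0 counts in all 3 control libraries at week 2 and 3 mg/kg. The MIR29B libraries stood at 0.42, 1.34 and 0 CPM, 34 counts in all. That made the MIR29B group at least 13.6-fold higher at a floor of 3 counts over the 3 control libraries, or 6.78-fold at 6 counts, since every count in the table was even. At 2 mg/kg the order was the opposite, with 0, 0.986 and 0.623 CPM against 1.2, 1.84 and 1.31 CPM and no overlap.

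The edgeR adjusted p of the Eomes difference at 3 mg/kg was 0.633, and the unadjusted p of 0.00175 was the smallest of the 30 genes in any comparison of the arms. Without the filter on low counts, which puts more genes of few counts into the fit, that adjusted p was 0.0118. Over both doses the control mean of 0.725 CPM lay above the MIR29B mean of 0.561 CPM, while the fitted average of logs was 2.57, since it takes in the empty group. NK cell markers, 10 genes, summed to 7.77 to 85.5 CPM in the control and 15.8 to 41.3 CPM with MIR29B at week 2, and no marker was at 0 over a group. By dose, the median log2 fold change of these 10 markers was -0.85 at 2 mg/kg, with 9 negative. At 3 mg/kg it was 0.84, with 1 negative, and 0 were called at either dose. The part of these markers in the result was not tested. Tbx21, which encodes T-bet, stood at 0.512 ± 0.436 CPM (SD, n = 6) in the control and 0.976 ± 0.492 CPM with MIR29B at week 2, a log2 fold change of 0.99 that was not called.

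The protease and cytoskeleton genes are Bace1 and Tpm1. Bace1, a membrane protease, had 308 counts in 24 libraries and differences between -0.69 and 0.55. Tpm1, which has an 8-mer, was positive in 5 of 6 comparisons and lay between -0.14 and 0.57. Its mean at week 2 was 239 CPM in the MIR29B arm (SD 32.5, n = 6) and 183 CPM in the control (SD 116), and the averaged difference of 0.38 ± 0.30 (SE) had an edgeR adjusted p of 0.723.

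Sorting the tested genes by their best site showed no fall that held across weeks. The 11 genes with an 8-mer had a median log2 fold change of -0.33 at week 2 with the doses averaged, and 8 of 11 were negative (72.7%). Among all 313 tested genes with an 8-mer the median was -0.06, and 56.2% were negative. Among the 9210 tested genes without a match the median was -0.1, and 57.9% were negative. At weeks 0 and 4 the medians of the 313 were -0.14 and 0.05, and those of the 9210 were -0.04 and 0.02. For the same 11 genes, 4 were negative at week 0, with a median of 0.09, and 5 at week 4, with a median of 0.03. The 5 genes without a match had medians of -0.54, 0.41 and 0.00 at weeks 0, 2 and 4, so at week 0 their median lay below that of the 8-mer genes.

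**Figure D3:**
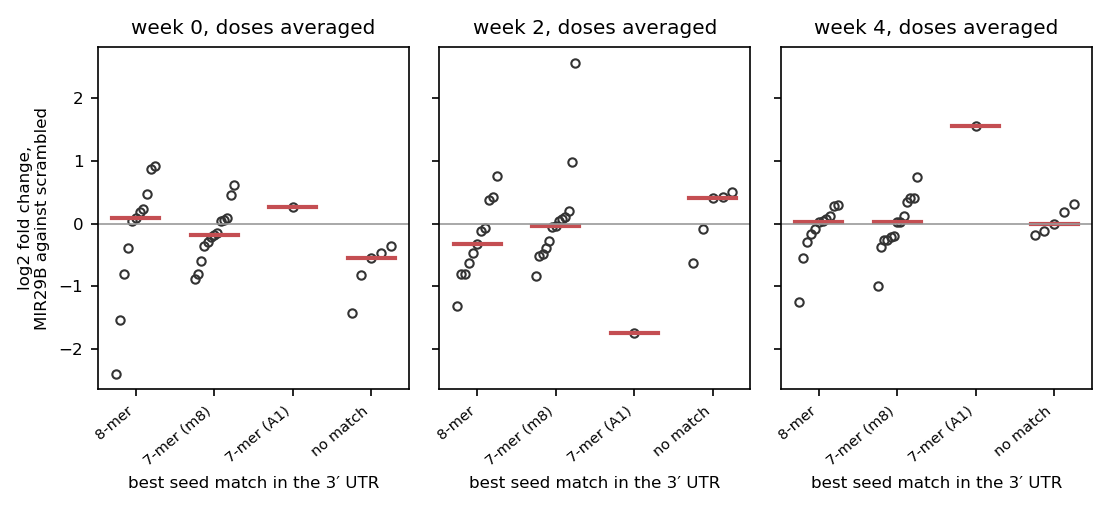
Log2 fold change of MIR29B against the scrambled control with the doses averaged (vertical axis) for the 30 tested genes, by best seed match in the 3′ UTR (horizontal axis), at weeks 0, 2 and 4; circles are genes and red bars are medians. The 8-mer genes centre on 0.09, -0.33 and 0.03, and the genes without a match on -0.54, 0.41 and 0.00.

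Receptors and growth factors had the lowest median of any role at week 0, -1.12 over 4 tested genes, all 4 negative and 0 called. Vegfa is the main growth factor of blood vessels (chr17:46016993-46032377). At week 0 and 2 mg/kg its MIR29B libraries read 0.85, 0 and 0.279 CPM and its control libraries 0.775, 1.55 and 0.583 CPM. The 3 mg/kg libraries read 0.544, 0.192 and 0.286 CPM against 0.806, 0.887 and 2.13 CPM, with every MIR29B library lower. The averaged log2 fold change at week 0 was -1.54 ± 0.52 (SE), with an edgeR adjusted p of 0.549 (unadjusted 0.00604). The comparisons of later weeks with week 0 start from these values. Pdgfrb, a receptor of pericytes and fibroblasts, had 34 counts in 9 libraries and was not tested.

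Igf1r, the receptor of insulin-like growth factor 1, was also low at week 0 in the MIR29B arm. It stood at 1.57 to 4.78 CPM there, with a median of 2.92 CPM, against 2.56 to 17.3 CPM and a median of 6.68 CPM in the control. The averaged log2 fold change was -1.42 ± 0.54 (SE), with an edgeR adjusted p of 0.601, and 0.0136 without the filter on low counts. At weeks 2 and 4 it was -0.09 and -0.18.

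Neutrophil, monocyte and platelet markers were mostly negative beside these genes at week 0, while 0 of the 10 B cell markers were negative. With the doses averaged, all 15 neutrophil markers were negative between the arms, with a median log2 fold change of -1.22 and 11 of 15 at an unadjusted p under 0.05, and 0 were called. They summed to 183 to 625 CPM with MIR29B and 204 to 1280 CPM in the control. Of the 10 platelet markers 9 were negative, with a median of -0.43, and they summed to 218 to 592 CPM against 300 to 713 CPM. Of the 9 tested monocyte and macrophage markers 7 were negative, with a median of -0.67. None of these markers was at 0 over an arm, and their part in the values of Vegfa, Grn and Igf1r was not tested.

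Comparing weeks 2 and 4 with week 0 within an arm asked which of these genes moved during the study, with the doses averaged. The MIR29B comparisons share the week 0 MIR29B libraries, and the control comparisons share the week 0 scrambled libraries. In the MIR29B arm, 2 of the 30 genes were called higher and 0 lower at week 2, where 3.45% of all tested genes were called higher and 1.99% lower (5.44% together). At week 4, 2 were called higher and 0 lower, beside 2.64% and 0.443% (3.09% together). In the control arm, 0 were called higher and 1 lower at week 2, beside 2.11% and 1.1% (3.21% together). At week 4, 0 were called higher or lower by edgeR, beside 0.36% and 0.1% (0.46% together), and 0 by DESeq2. At an unadjusted p under 0.05, 6 and 8 of the 30 passed with MIR29B at weeks 2 and 4, beside 20.4% and 17.1% of all genes, and 8 and 3 passed in the control, beside 20.3% and 9.77%. The 5 calls fell on 4 genes: Akt2, Vegfa, Grn and Itga6.

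Akt2 (chr7:27591552-27640826) rose at both weeks in the MIR29B arm. It stood at 40.3 to 55.5 CPM at week 0, with a median of 46.7 CPM, at 79 to 124 CPM at week 2, with a median of 113 CPM, and at 57.8 to 135 CPM at week 4, with a median of 103 CPM. All 6 libraries of each later week lay above all 6 of week 0, which 4.86% of all genes did in either direction at week 2 and 3.73% at week 4. The rise was 2.26-fold at week 2, a log2 fold change of 1.18 ± 0.23 (SE) with an edgeR adjusted p of 0.00291, and 2.09-fold at week 4, 1.06 ± 0.23 with 0.00631. Akt2 has no miR-29 site in its annotated 3′ UTR.

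In the control arm Akt2 stood at 42.6 to 94.5 CPM at week 0, 47.8 to 98.4 CPM at week 2 and 59.9 to 127 CPM at week 4, and the weeks overlapped. Its log2 fold changes were 0.32 ± 0.23 and 0.53 ± 0.23, with edgeR adjusted p of 0.44 and 0.447. The difference between the arms in the week 2 change was 0.85 ± 0.33, with an edgeR adjusted p of 0.859 (unadjusted 0.0133), and at week 4 it was 0.54 ± 0.33. Leaving out any 1 of the 36 libraries kept both calls, with adjusted p up to 0.0147 at week 2 and 0.0453 at week 4.

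Erythroid markers showed no shared direction beside Akt2 in the MIR29B arm. Of the 12, 5 were negative at week 2, with a median log2 fold change of 0.22, and 6 at week 4, with a median of 0.01. The 12 markers summed to 101000 to 165000 CPM at week 0, 155000 to 192000 CPM at week 2 and 160000 to 212000 CPM at week 4, with none at 0. Of the 12, Ank1 and Sptb of the red cell membrane skeleton were called higher at week 2, and 0 were called at week 4. In the control arm they summed to 103000 to 180000, 89400 to 175000 and 149000 to 205000 CPM. Their part in the result was not tested.

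**Figure D4:**
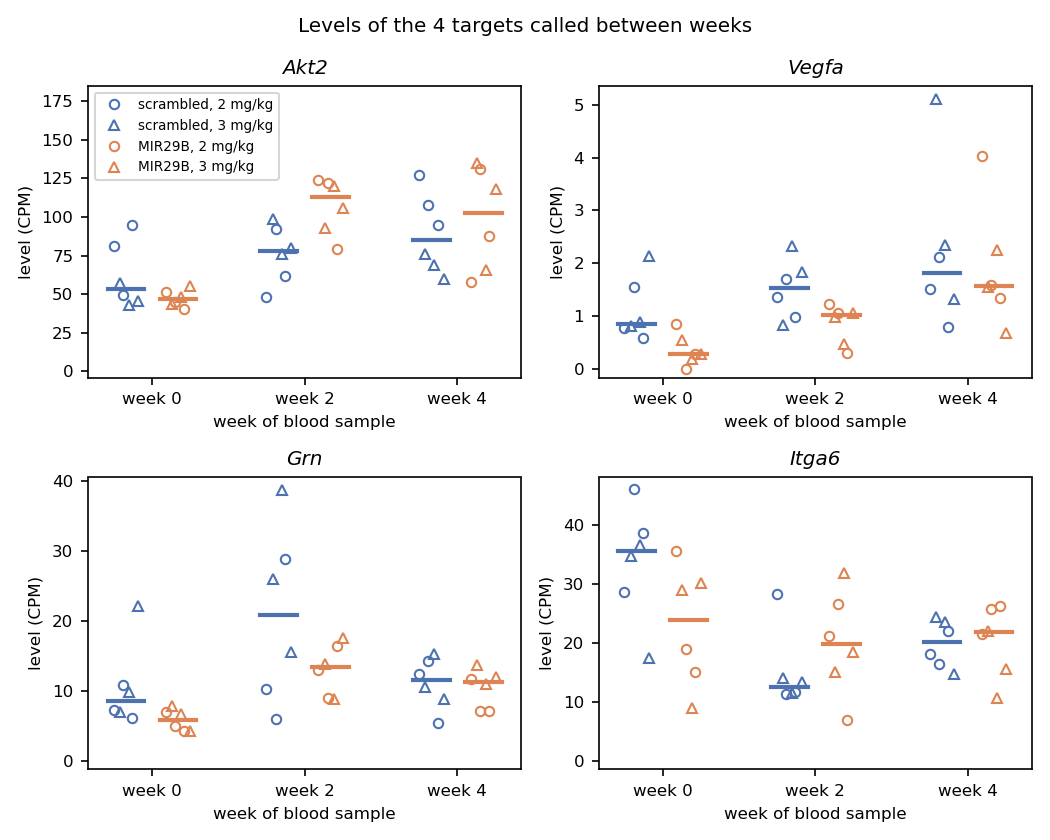
Level in CPM (vertical axis, from 0) of Akt2, Vegfa, Grn and Itga6 in each library at weeks 0, 2 and 4; blue is the scrambled control, orange MIR29B, circles 2 mg/kg, triangles 3 mg/kg, and bars are medians of 6 libraries. Akt2 in the MIR29B arm lies at 40.3 to 55.5 CPM at week 0 and above that in all later libraries, and Itga6 in the control falls from a median of 35.6 to 12.5 CPM at week 2.

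Vegfa rose at week 4 in the MIR29B arm, from low counts. It stood at 0 to 0.85 CPM at week 0, with a median of 0.283 CPM, at 0.312 to 1.24 CPM at week 2, with a median of 1.02 CPM, and at 0.687 to 4.04 CPM at week 4, with a median of 1.57 CPM. The groups of weeks 0 and 4 overlapped between 0.687 and 0.85 CPM. The rise at week 4 was 4.81-fold, a log2 fold change of 2.26 ± 0.53 (SE) with an edgeR adjusted p of 0.00976, over summed counts of 46 at week 0 and 262 at week 4.

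The control arm stood at 0.583 to 2.13 CPM at week 0 and 0.799 to 5.1 CPM at week 4, a change of 0.90 ± 0.49 with an edgeR adjusted p of 0.562. At week 4 the medians were 1.57 CPM with MIR29B and 1.82 CPM in the control, and the arms overlapped. The difference between the arms in the week 4 change was 1.37 ± 0.71, with an adjusted p of 0.78. Without MIR29B replicate 1 of week 4 at 2 mg/kg, which held the highest MIR29B level, the adjusted p of the rise was 0.0585. Of the 15 neutrophil markers 6 and of the 9 tested monocyte and macrophage markers 2, Cd14 and Nr4a1, were called higher at week 4 in the MIR29B arm. In the control, 3 of the 15 neutrophil markers (Il1r2, G0s2 and Trem1) and 1 of the 9, Cd14, were called higher then. Their part in the result was not tested.

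Grn, which encodes the secreted growth factor progranulin of myeloid cells (chr11:102430507-102436809), rose at week 2 in the MIR29B arm. It stood at 4.19 to 7.82 CPM at week 0, with a median of 5.80 CPM, and at 8.88 to 17.5 CPM at week 2, with a median of 13.4 CPM, and the groups did not overlap. The rise was 2.25-fold, a log2 fold change of 1.17 ± 0.34 (SE) with an edgeR adjusted p of 0.0373. In the control arm it stood at 6.06 to 22.1 CPM and 5.96 to 38.8 CPM, a change of 0.97 ± 0.34 with an edgeR adjusted p of 0.0963, and 0.0457 by DESeq2. It was also under 0.05 without control replicate 3 of week 0 at 3 mg/kg (0.0367), or replicate 1 (0.0498) or 2 (0.036) of week 2 at 2 mg/kg. The difference between the arms in this change was 0.20 ± 0.47, with an adjusted p of 0.988 and an interval from -0.73 to 1.13.

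The call of Grn was lost when any of 8 libraries of the MIR29B arm was left out: replicates 2 and 3 of week 0 or replicates 1 and 3 of week 2, at either dose. The adjusted p then lay between 0.0608 and 0.113. Without the 3 libraries rich in ribosomal or unnamed RNA the change was 1.16 with an adjusted p of 0.166.

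Neutrophil markers moved the same way in both arms. The 15 markers summed to 183 to 625 CPM at week 0 and 806 to 1780 CPM at week 2 with MIR29B, without overlap, and to 204 to 1280 CPM and 924 to 3110 CPM in the control. With MIR29B 9 of the 15 were called higher at week 2, among them S100a8, S100a9 and Csf3r, and in the control 7 were. None was at 0 in any group. Their part in the change of Grn was not tested.

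**Figure D5:**
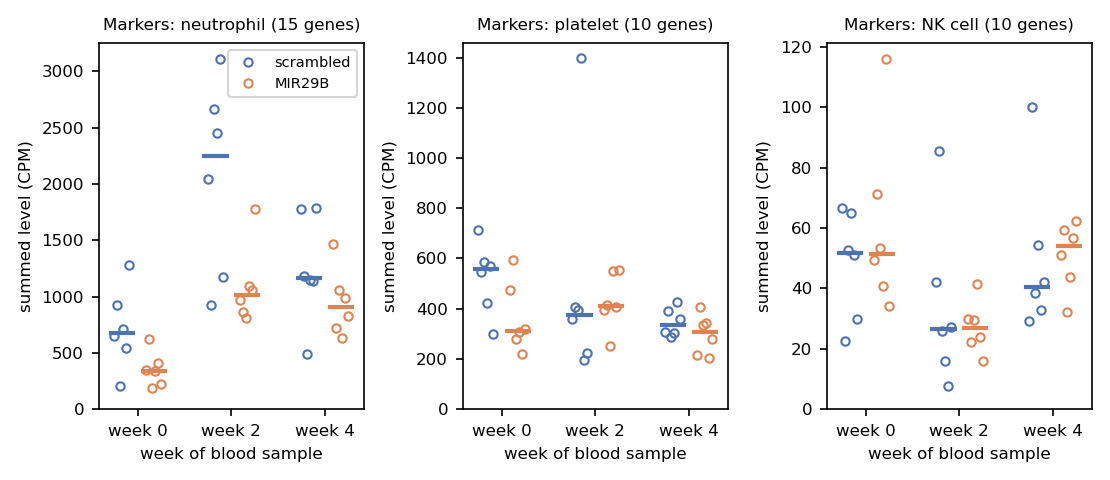
Summed level in CPM (vertical axes, from 0) of neutrophil, platelet and NK cell markers in each library at weeks 0, 2 and 4; blue is the scrambled control, orange MIR29B, and bars are medians of 6 libraries. Neutrophil markers rise from medians of 678 and 341 CPM at week 0 to 2240 and 1020 CPM at week 2 in the control and MIR29B arms, and 1 control library at week 2 stands apart at 1400 CPM of platelet markers.

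Itga6, the laminin-binding integrin alpha 6 found on platelets among other cells (chr2:71786886-71858427), fell at week 2 in the control arm. It stood at 17.4 to 46.1 CPM at week 0, with a median of 35.6 CPM, and at 11.3 to 28.3 CPM at week 2, with a median of 12.5 CPM. The highest week 2 library, replicate 1 at 2 mg/kg, overlapped week 0, and the other 5 lay between 11.3 and 14.1 CPM. The fall was 2.24-fold, a log2 fold change of -1.16 ± 0.33 (SE) with an edgeR adjusted p of 0.0425.

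With MIR29B Itga6 stood at 8.92 to 35.5 CPM at week 0 and 6.85 to 31.8 CPM at week 2, a change of -0.20 ± 0.32 with an adjusted p of 0.794. The difference between the arms in this change was 0.96 ± 0.46, with an edgeR adjusted p of 0.881 (unadjusted 0.0436). Platelet markers, 10 genes, summed to 300 to 713 CPM at week 0 and 195 to 1400 CPM at week 2 in the control, with 0 of 10 called and none at 0. The library with 1400 CPM, replicate 1 at 3 mg/kg, held 14.1 CPM of Itga6, and without it the fall was -1.22 with an edgeR adjusted p of 0.0647. The library with the highest Itga6, replicate 1 at 2 mg/kg, held 357 CPM of platelet markers, and without it the fall was -1.43 with an adjusted p of 0.0134. The part of the platelet markers in the result was not tested.

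The call of Itga6 was lost, with adjusted p between 0.0507 and 0.147, when any of 12 libraries was left out. Of the control libraries these were replicates 1, 2 and 3 of week 0 at 2 mg/kg, replicates 1 and 2 of week 0 at 3 mg/kg, replicates 2 and 3 of week 2 at 2 mg/kg, replicates 1 and 2 of week 2 at 3 mg/kg and replicate 2 of week 4 at 2 mg/kg. Of the MIR29B libraries they were replicates 1 and 3 of week 4 at 2 mg/kg. Fitted on the week 0 and week 2 control libraries alone, the adjusted p was 0.193.

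Ccnd2 and Eomes came closest to the threshold in the same comparison. Ccnd2 stood at 7.41 to 14.9 CPM at week 0 and 1.42 to 9.85 CPM at week 2 in the control, a log2 fold change of -1.55 ± 0.47 (SE) with an edgeR adjusted p of 0.0558. Without control replicate 1 of week 2 at 2 mg/kg, the highest there, it was -2.31 with 0.0061. At week 4 it stood at 4.17 to 6.05 CPM, below all 6 libraries of week 0, which 1.66% of all genes did in either direction, and the edgeR adjusted p was 0.341. With MIR29B it stood at 3.14 to 13.7 CPM at week 0, 0.935 to 8.31 CPM at week 2 and 5.36 to 7.33 CPM at week 4.

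Eomes in the control stood at 0 to 3.21 CPM at week 0 and 0 to 1.84 CPM at week 2, with 1 and 3 of 6 libraries at 0. Its edgeR adjusted p was 0.0537. Without that same replicate 1, 5 of the 30 genes were called in the control at week 2: Itga6, Ccnd2 and Eomes lower and Grn and Ppm1d higher, the adjusted p of Ppm1d being 0.0289. Over all genes, 384 were called in this comparison with all libraries, and 42 to 950 with single libraries left out.

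The difference between the arms in the change from week 0 was not called for any of the 30 genes, and 0.0% of all genes were called at either week. By DESeq2, 0 were called as well. At an unadjusted p under 0.05, 2 genes passed at week 2, Akt2 and Itga6, beside 5.61% of all genes, and 1 passed at week 4, Tdg, beside 6.03%. The change of Tdg at week 4 was 1.08 ± 0.52 higher with MIR29B, with an edgeR adjusted p of 0.78. The median over the 30 genes was 0.23 at week 2 and 0.38 at week 4, where all genes had -0.01 and 0.12.

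Other known miR-29 targets, those of DNA methylation and of apoptosis, and the genes of the silencing machinery were read beside the 37. Of 11 tested genes of the first list (12 with Hrk, which was not tested), 0 were called between the arms and 1, Bbc3, between weeks. Bbc3 encodes the apoptosis activator PUMA. It stood at 3.72 to 10.9 CPM at week 0, 12.5 to 20 CPM at week 2 and 8.62 to 15.2 CPM at week 4 with MIR29B, and its log2 fold changes were 1.46 ± 0.29 (SE) and 1.1 ± 0.29, with edgeR adjusted p of 0.00313 and 0.0276. In the control the week 2 change was 0.98 ± 0.29 with an adjusted p of 0.0519, and the difference between the arms was 0.47 ± 0.41 with 0.925. Of 12 tested genes of the silencing machinery, among them Ago2 and Dicer1, 0 were called in any of the 15 comparisons.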

How the data were processed

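RNA sequencing counts of 36 libraries were analysed. Per the submitters' processing notes, HISAT2 2.0.5, featureCounts 1.5.0-p3 and GRCm38 were used. The deposited values are raw counts for 25856 RefSeq transcripts, not normalised; every count was even, and the strand setting and the annotation release are not given in the sources used here. Transcripts were matched to symbols with RefSeq (25650) or GENCODE (132), the other 74 were kept under their own identifiers, and 1 transcript, that of the largest summed count, stood for each gene.

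Genes were filtered with edgeR's filterByExpr (minimum count 10, minimum total 15), scaled by TMM and fitted over all 12 groups with the quasi-likelihood test of edgeR 4.0.16 in R 4.3.3; p-values were adjusted by Benjamini-Hochberg over the 11953 tested genes, two-sided, and a gene was called under 0.05. Standard errors were derived from the fold change and the F statistic (log2 fold change over root F), and 95% intervals are 1.96 standard errors. The code was tested on simulated data.

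All 37 genes were accounted for; genes called in any comparison, or with the smallest unadjusted p between the arms, were given by library. The genes, lists and roles were chosen with earlier results of these data known. Floors use 3 counts over a group's summed libraries and cover counting error only. Alternatives were DESeq2 1.42.0, RLE scaling, no filter, halved counts, a replicate block, only the libraries compared, and leaving out libraries rich in ribosomal RNA or each library in turn. A result on 1 erythroid marker is not reported here.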

Additional observations from a re-analysis of the deposited data

Results flagged for a closer look

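The check covered 24 groups of 6 libraries, the 4 called genes in each arm and week. In 3 of the 24, the highest library stood farther from the others than Dixon's limit for 6 values allows. How often chance does so for such levels was not determined. Grn in the control at week 0 had its highest library at 22.1 CPM, and the other 5 reached at most 10.8 CPM. Itga6 in the control at week 2 had its highest library at 28.3 CPM, and the others reached at most 14.1 CPM. Vegfa in the control at week 4 had its highest library at 5.1 CPM, and the others reached at most 2.35 CPM. All 3 are control libraries.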

How the results depend on the processing

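The number of the 37 genes called kept its value in most alternatives. Between the arms it stayed at 0, except that without the filter on low counts 1 gene, Igf1r, was called at week 0 with the doses averaged and 1, Eomes, at 3 mg/kg in week 2. Over all genes, that setting called 163 and 36 in these comparisons, where the main fit called 0. For week 2 with MIR29B the count among the 37 genes was 2, and 4 without the filter, 1 without the libraries rich in ribosomal RNA and 1 to 3 with single libraries left out. For week 4 with MIR29B it was 2, and 4 without the filter, 5 with only the libraries compared and 1 to 3 with single libraries left out. For week 2 in the control it was 1, and 4 by DESeq2, 2 with RLE scaling, 5 without the filter, 2 with halved counts, 0 with only the libraries compared and 0 to 5 with single libraries left out. For week 4 in the control it was 0, and 1 with only the libraries compared.

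Over all genes the counts depended more on the setting. Week 2 with MIR29B gave 650 calls, 1095 by DESeq2, 164 without the libraries rich in ribosomal RNA and 293 to 855 with single libraries left out. Week 4 with MIR29B gave 369, 782 by DESeq2, 735 without the filter, 626 with only the libraries compared and 196 to 544. Week 2 in the control gave 384, 948 by DESeq2, 902 without the filter, 144 without the ribosomal libraries, 0 with only the libraries compared and 42 to 950. Week 4 in the control gave 55, 137 by DESeq2, 139 without the filter, 36 without the ribosomal libraries and 28 to 72. The cause of these moves was not tested. RLE scaling moved the median of all genes by at most 0.06.

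Of the single genes read between the arms, only Eomes changed direction. At week 2 with the doses averaged, Eomes was -0.6 without the libraries rich in ribosomal RNA. Col3a1 at week 2 and 2 mg/kg ranged from -6.04 to 0 with single libraries left out. It was 0 without control replicate 1, since no counts then remained in either group.

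Between the arms, deviations of same-numbered libraries from their group means had correlations of -0.28 to 0.36, with 8 of 18 over 0.1. Over all pairs of groups, which include different weeks, they ran from -0.54 to 0.47, with a median of 0.05. With 3 libraries a group, these values cannot decide whether libraries were paired between arms or weeks. With the replicate number as a block the calls among the 37 genes were 2, 2, 1 and 0 in the same order, and 0 between the arms.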
